A study of Mus musculus with 416 samples.

Results

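Mouse chromosome 13 was followed through 6 groups of single blastomeres as a series of 50-kb bins. Its members were all bins of chromosome 13 in which at least 10 cells of every group carried a replication state. This left 2208 of the 2409 chromosome 13 bins in the tables, out of 46015 such bins on the 19 autosomes, or 4.80% of them. They ran from 3.5 to 119.85 Mb of the chromosome (GRCm38). The minimum of 10 cells cut nothing close to it, because every used bin had at least 44 cells in each group and each of the 201 unused bins had 0 cells in at least 1 group. The chromosome, its window at 3 to 4 Mb and its window around the gene Arl15 (chr13:113000001-114000000) were chosen by their measured shifts between siRif1 and siCont, so those shifts are given as descriptions.

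The embryos had the genotype (C57BL/6J xCBA) x DBA/2J in all groups. Zygotes received 20 µM of siRif1, an siRNA against Rif1, or 20 µM of siControl (siCont) between 17 and 18 h after hCG, and were cultured to S phase of the 4-cell, 8-cell or morula stage. DNA of single blastomeres was then amplified and sequenced. The tables used held 51, 50 and 45 siRif1 cells and 49, 60 and 44 siCont cells at the 4-cell, 8-cell and morula stages, or 299 of 416 labelled cells. Since no label ties a cell to an embryo or a batch, each group counts as 1 sample, cells are not replicates, and no p-value is given. The files hold DNA states only, so the level of Rif1 after the injection was not measured in them, and no group of embryos without an injection was analysed here.

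Replication timing is the order in which parts of the genome are copied during S phase. Early replicating domains are as a rule gene-rich and open, whereas late domains are gene-poor and often lie at the nuclear lamina. Rif1 binds late replicating chromatin and brings protein phosphatase 1 there, which counters the kinase that fires origins, and cells without Rif1 are known for a blurred timing programme. In the mouse the timing programme is known to become sharper during the cleavage stages. Mouse chromosome 13 carries the major histone gene cluster, a cluster of prolactin-like placental hormone genes, vomeronasal receptor genes and long gene-poor stretches.

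The promoters of 4 genes are shown because they stand for the 4 situations that the results turn on. Tasor2, a relative of the HUSH complex subunit Tasor, starts in the window at 3 to 4 Mb, whose shift had opposite signs at the 4-cell stage and in morulae. Arl15, a gene for a small GTPase, starts in the distal window named after it here. Prl3a1, a placental member of the prolactin family, starts in a run that was late in all 6 groups. Cox7c, a subunit of cytochrome c oxidase, was the only protein-coding gene with its midpoint in the late run at 85.9 to 88.9 Mb. The sequences are those of RefSeq (GRCm38.p6), from 250 bases before to 50 bases after the start of the gene: chr13:3611059-3611358 on the minus strand for Tasor2, chr13:113794258-113794557 on the plus strand for Arl15, chr13:27259239-27259538 on the plus strand for Prl3a1 and chr13:86046746-86047045 on the minus strand for Cox7c. Capitals mark the dinucleotide CG, which reads the same on both strands.
Tasor2: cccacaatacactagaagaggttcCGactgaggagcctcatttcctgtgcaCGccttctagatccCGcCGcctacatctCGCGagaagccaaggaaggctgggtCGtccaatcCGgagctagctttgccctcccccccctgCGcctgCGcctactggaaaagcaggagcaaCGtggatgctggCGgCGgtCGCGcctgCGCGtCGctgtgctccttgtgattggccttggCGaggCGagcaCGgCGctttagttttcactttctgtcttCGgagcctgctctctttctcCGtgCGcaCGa
Arl15: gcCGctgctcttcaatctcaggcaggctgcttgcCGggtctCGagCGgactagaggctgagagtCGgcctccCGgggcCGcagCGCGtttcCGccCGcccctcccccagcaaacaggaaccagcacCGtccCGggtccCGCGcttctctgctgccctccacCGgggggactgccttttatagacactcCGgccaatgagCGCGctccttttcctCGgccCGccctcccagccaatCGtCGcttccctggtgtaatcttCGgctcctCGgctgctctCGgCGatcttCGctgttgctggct
Prl3a1: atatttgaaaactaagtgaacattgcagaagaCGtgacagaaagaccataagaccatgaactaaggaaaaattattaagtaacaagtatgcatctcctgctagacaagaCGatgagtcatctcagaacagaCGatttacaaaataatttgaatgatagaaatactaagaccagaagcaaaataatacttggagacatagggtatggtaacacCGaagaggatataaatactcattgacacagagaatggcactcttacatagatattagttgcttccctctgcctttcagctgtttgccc
Cox7c: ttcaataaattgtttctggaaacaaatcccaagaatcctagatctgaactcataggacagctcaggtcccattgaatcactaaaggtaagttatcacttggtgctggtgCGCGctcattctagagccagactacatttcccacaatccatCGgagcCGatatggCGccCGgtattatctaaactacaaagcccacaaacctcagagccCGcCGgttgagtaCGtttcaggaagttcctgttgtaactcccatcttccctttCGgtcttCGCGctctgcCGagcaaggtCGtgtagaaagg
The dinucleotide CG occurred 26 times in the Tasor2 promoter, 28 times in that of Arl15, 14 times in that of Cox7c and 4 times in that of Prl3a1. Of the 682 chromosome 13 promoters whose start lay in a used bin, 96.2% held at least 1 CG, against 95.7% of 14783 promoters on the other autosomes. Chromosome 13 promoters in bins that were early in all 6 groups had a median of 20 CG, and those in bins late in all 6 groups had a median of 3. On the other autosomes these medians were 19 and 2. The Cox7c promoter was thus CG-rich for its late surroundings, since 22.2% of the 108 always-late promoters of chromosome 13 had 10 or more CG.

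For each bin and group the share of cells in state 1 was taken as the replicated share. State 1 was read as replicated because the share of 1 was higher in bins with the midpoint of a protein-coding gene than in other bins of all 6 groups, on chromosome 13 as on the other autosomes. On chromosome 13 the gap was smallest at the 4-cell stage, with 54.5% in bins with a gene and 52.5% in bins without in siRif1 cells, and 44% and 41.8% in siCont cells. It was largest in siCont morulae, with 60.2% in bins with a gene and 48.9% in bins without. Because groups were sampled at different points of S phase, each share was centred by subtracting the mean share of all used autosomal bins of its group, from 43% to 50.5%. A positive centred share means earlier than the autosomal mean and is called early, a negative one is called late. The shift is siRif1 minus siCont of the centred shares at 1 stage, in percentage points, so that a positive shift means earlier in siRif1 cells.

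Every cell had a state at every used bin of chromosome 13, whereas 13 cases of a cell without any state on a chromosome occurred on 8 other autosomes. In 3 cells chromosome 13 stood apart from the rest of the cell by 30 points or more. A siCont 4-cell blastomere (replicate 16) had 12.3% of chromosome 13 replicated and 74.1% of the other autosomes. A siRif1 8-cell blastomere (replicate 30) had 82.1% against 50.5%, and a siCont 8-cell blastomere (replicate 49) had 3.35% against 42.7%. The other 18 autosomes had from 0 to 11 such cells, with a median of 3.5. Chromosome means, counts of bins and window shifts were recomputed without these 3 cells, and values that changed sign or moved by over 1.5 times are given beside the result.

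The chromosome as a whole was early in siRif1 cells at all 3 stages and late in siCont cells only at the 4-cell stage. In siRif1 cells its mean centred share was 2.58, 4.75 and 4.84 points at the 4-cell, 8-cell and morula stages, which ranked 4, 2 and 3 from the top among 19 autosomes. In siCont cells it was -4.17, 2.76 and 2.54 points, with ranks of 18, 4 and 5 from the top. The siCont 4-cell value was the lowest of the 6, and only chromosome 17 was later in that group. With groups centred on the median of all bins, the siCont morula value was -2.62 points instead.

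**Figure D1:**
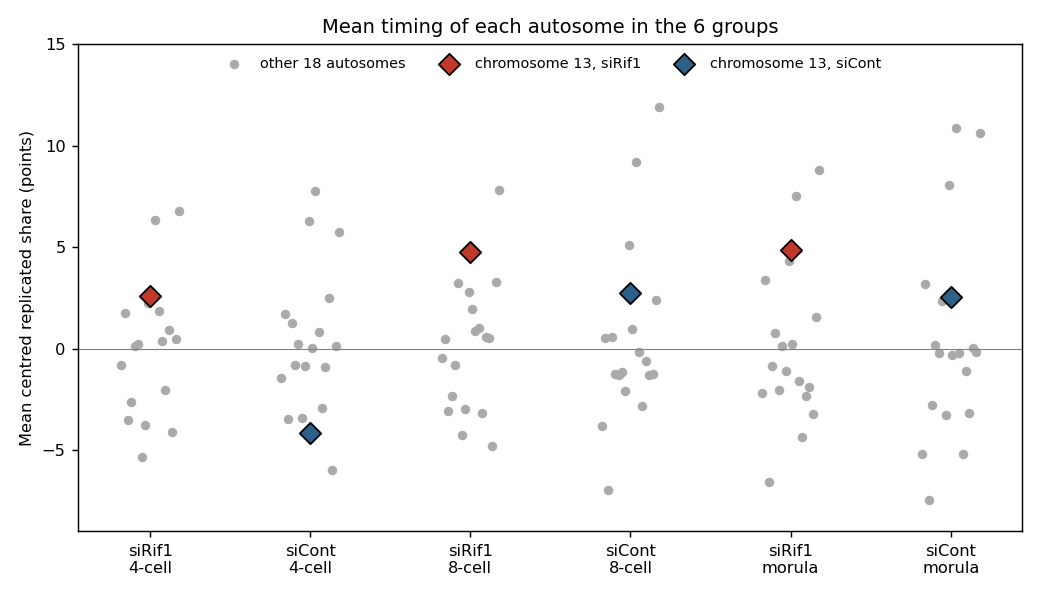
The mean centred replicated share (points, vertical axis) is plotted for each of the 19 autosomes in the 6 groups, siRif1 left of siCont at each stage. Diamonds are chromosome 13 and grey points the other 18 autosomes; at the 4-cell stage the diamond sits at 2.58 in siRif1 cells and at -4.17 in siCont cells.

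At the 4-cell stage the mean shift of chromosome 13 was 6.75 points, the highest of 19 autosomes, the others lying between -4.03 and 3.30. In 8-cell blastomeres it was 1.99 points with rank 4, and in morulae 2.30 points with rank 2 (6.32 points with centring on the median). The 4-cell shift kept rank 1 under each of the 6 other settings in which it was recomputed, with values on the point scale between 4.58 and 7.33. The setting of at least 20 cells per bin kept the same bins, and centring on the median moved all autosomes alike. Neither of these settings could change the rank. Without the 3 cells that stood apart the shifts were 5.61, 0.780 and 2.30 points, and the 8-cell rank was 8.

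The difference between siRNAs at the 4-cell stage was also a difference between stages in siCont cells. In these cells the mean of chromosome 13 was 6.93 points higher at the 8-cell than at the 4-cell stage, again the highest of 19 autosomes, with the others between -3.79 and 6.16. In siRif1 cells the same step was 2.17 points, with rank 4. Morula minus 8-cell was 0.0859 points in siRif1 cells and -0.224 points in siCont cells, and 0.609 and -0.910 points without the 3 cells that stood apart. The siCont 4-cell cells enter both the 4-cell shift and the siCont step, so these are not independent of each other. Centred on the median, the siCont difference between 8-cell and 4-cell blastomeres was 2.82 points, and that between morula and 4-cell was -0.0897 in place of 6.71 points.

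Cell by cell, chromosome 13 was ahead of the other autosomes in 35 of 51 siRif1 and 13 of 49 siCont 4-cell blastomeres. In 8-cell embryos it was ahead in 35 of 50 siRif1 and 40 of 60 siCont cells, and in morulae in 35 of 45 siRif1 and 28 of 44 siCont cells. The median difference per cell was 3.10 points in siRif1 and -3.41 in siCont cells at the 4-cell stage, 5.87 and 4.11 points at the 8-cell stage, and 5.18 and 3.96 points in morulae. Single cells spread widely around these medians, and the groups overlapped at every stage. The number of state changes along chromosome 13 in cells between 20 and 80% replicated had medians of 54 in siRif1 and 54 in siCont 4-cell blastomeres, 56 and 49 in 8-cell blastomeres, and 46 and 47 in morulae.

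**Figure D2:**
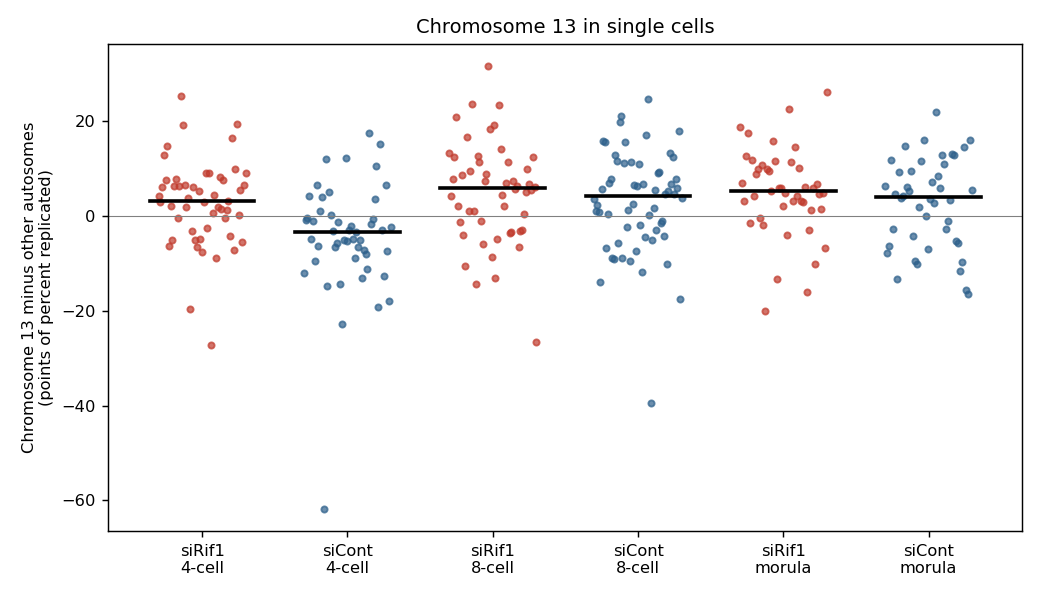
Each point is 1 cell, and the vertical axis is the percent of chromosome 13 replicated minus the percent of the other autosomes replicated in that cell (points). Black bars are group medians; the siCont 4-cell median is -3.41 and the other 5 medians lie between 3.10 and 5.87.

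Along the chromosome early and late domains alternated in every group, as the timing profile by stage shows. A domain was a run of used bins on 1 side of the group mean after runs under 10 bins (500 kb) had been merged into their neighbours. There were 48, 44 and 38 domains in siRif1 cells and 45, 34 and 38 in siCont cells at the 3 stages. Their median length was 1.58, 2.03 and 1.90 Mb in siRif1 cells and 1.95, 1.80 and 1.93 Mb in siCont cells. The longest early domain lay in the middle of the chromosome but differed in extent between groups. At the 4-cell stage it spanned 34.35 to 52.15 Mb in siRif1 blastomeres and only 40.45 to 47.15 Mb in siCont blastomeres, where late domains followed at 47.15 to 48.55, 51.15 to 54.4 and 56 to 57.8 Mb. In siRif1 8-cell blastomeres it spanned 39.9 to 51.7 Mb, with late domains at 51.7 to 52.55 and 55.7 to 57 Mb, and in siCont 8-cell blastomeres 40.35 to 60.7 Mb. In morulae it spanned 39.95 to 60.85 Mb in siRif1 cells and 48.05 to 60.85 Mb in siCont cells, where a second domain lay at 40.15 to 47.55 Mb.

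**Figure D3:**
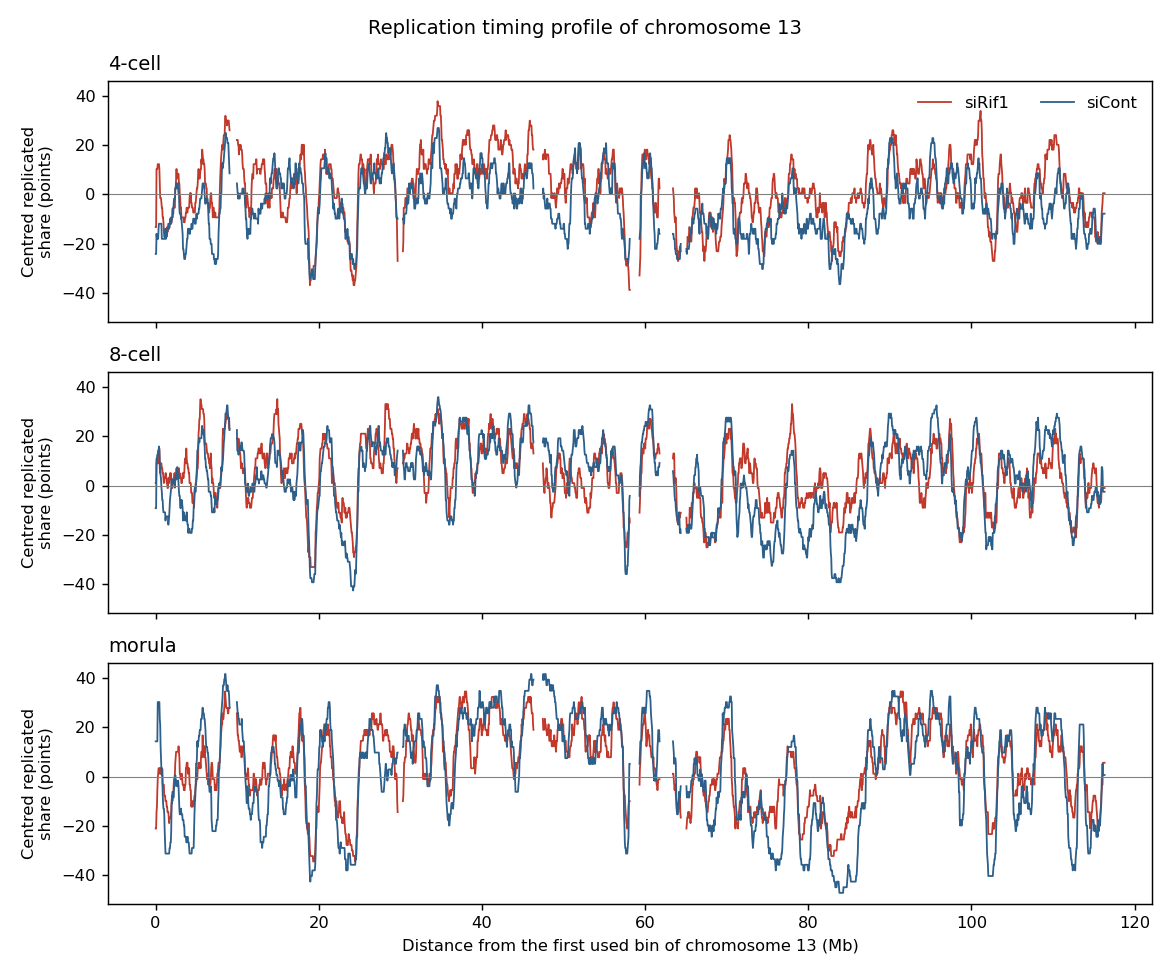
The centred replicated share (points, vertical axis) of the 2208 used bins is drawn against the distance from the first used bin (Mb), siRif1 in red and siCont in blue, with a panel per stage and gaps where bins were unused. The spread over bins in siCont cells is 12 points at the 4-cell stage, 16.4 at the 8-cell stage and 21.8 in morulae, while in siRif1 cells it is 13, 12.9 and 15.5 points.

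In the cells as sampled, the profile became deeper with stage in siCont cells and less so in siRif1 cells. Its SD over bins was 13, 12.9 and 15.5 points in siRif1 cells and 12, 16.4 and 21.8 points in siCont cells. The siRif1 to siCont ratio of these SDs was 1.09, 0.791 and 0.711. The morula ratio was the highest of 19 autosomes, the others reaching from 0.615 to 0.702. The groups differed in the S phase positions of their cells, and some SDs moved when these were matched. With matched positions the SD was 14.2 points in siRif1 and 17.8 in siCont 8-cell blastomeres, and 17.8 in siRif1 morulae. Matched ratios and SDs of the other autosomes are not given here, so the ratios and their rank hold for the cells as sampled. Chromosome 13 had the shallowest siCont profile of all autosomes at the 8-cell stage, where the others had SDs from 17.5 to 22 points, and in morulae, where they had 22.4 to 29.7 points. Across bins of the chromosome, which share cells and are not independent, Pearson's r between siRif1 and siCont was 0.765, 0.784 and 0.874 at the 3 stages. At the 4-cell stage 74.1% of bins were on the same side of the mean in both, the lowest share of 19 autosomes.

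In total 688 bins (31.2%) were early in all 6 groups and 428 (19.4%) were late in all 6. The other autosomes had 17.9 to 48.5% of bins early in all and 10.9 to 42% late in all. In siCont cells 33.5% of chromosome 13 bins were on different sides at different stages, the highest share of 19 autosomes (others 21.9 to 32.1%). In siRif1 cells it was 31.9%, rank 12. The side of a bin depends on the centring, and centring on the median put the siCont morula mean at -2.62 in place of 2.54 points. Shares of sides and domains with that centring are not given here. The bins that kept 1 side formed 13 early and 8 late runs of at least 20 bins.

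In the always-early run at 11.5 to 13.6 Mb, with Ryr2, a calcium release channel, and Mtr, methionine synthase, the mean centred share was 24.8, 21.1 and 25.6 points in siRif1 cells and 14.2, 20.4 and 33.7 points in siCont cells. At 37.25 to 39.05 Mb, with the zinc finger gene Rreb1 and Bmp6, a bone morphogenetic protein, it was 26.2, 22.4 and 21.1 points in siRif1 cells and 14.5, 22.7 and 22.6 points in siCont cells. The run at 45.8 to 47.15 Mb, with Dek, a chromatin protein, and Kdm1b, a histone demethylase needed for imprinting in oocytes, had a shift of 17.4 points at the 4-cell stage, the largest among the 13 early runs. Its shift was -5.82 points at the 8-cell stage and -4.45 points in morulae.

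Of the always-late runs the longest, at 85.9 to 88.9 Mb with only Cox7c in it, stood at -15.3, -11.0 and -24.5 points in siRif1 cells and -22.1, -28.4 and -41.8 points in siCont cells. The prolactin run at 26 to 28.3 Mb stood at -18.9, -14.8 and -23.6 points in siRif1 cells and -17.7, -29.1 and -31.9 points in siCont cells. A run of vomeronasal receptor genes at 21.95 to 23.35 Mb had shifts of 3.88, 0.788 and 2.78 points. At 115.5 to 116.5 Mb, with Isl1, a LIM homeobox factor, the shift was 11.2, 0.497 and 22.2 points. Chromosome 13 had 7.03 protein-coding genes per Mb of used bins, rank 14 of 19.

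Large shifts were mostly towards earlier replication at the 4-cell stage. At least 20 points earlier in siRif1 4-cell blastomeres were 137 chromosome 13 bins (6.20%, the highest share of 19 autosomes), against 1.36 percent of all used bins. This share was 3.71% with centring on the median and 10.1% in cells between 20 and 80% replicated. Only 1 bin was as much later, or 0.0453%, against 1.24 percent of all. At the 8-cell stage 90 bins (4.08%) were at least 20 points earlier, against 3.95 percent of all, and 24 (1.09%) as much later, the lowest share of 19 autosomes, against 6.43 percent of all. Without the 3 cells that stood apart the share of later bins was 1.99%. In morulae 144 bins (6.52%) were earlier, against 6.41 percent of all, and 48 (2.17%) later, against 5.6 percent of all. The shares of earlier bins at the 8-cell and morula stages were near those of the whole genome on this scale, and the shares of later bins ranked 19 and 18 from the top. Centred on the median, 7.02% of chromosome 13 bins were earlier and 0.272% later at the 8-cell stage, and 12.4% and 0.679% in morulae. Shares of all used bins with that centring are not given here. The median-centred shares therefore cannot be set against the genome shares above. Neighbouring bins share domains, so these counts are not of separate events.

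In windows of 1 Mb with at least 10 used bins, 93 of 111 on chromosome 13 had a positive shift at the 4-cell stage, or 83.8%, against 48.4% of all 2317 windows. At the 8-cell stage 62 (55.9%) were positive, against 52.7% of all windows, and in morulae 65 (58.6%), against 47.8% of all. The sign was positive at all stages in 31 windows and negative at all stages in 3. In 43 windows it was positive at the 4-cell stage and negative in morulae, and in 15 the reverse. Centring on the median moved each shift of the genome by -2.17, 2.63 and 4.02 points at the 3 stages. The positive windows of chromosome 13 then numbered 81, 77 and 84. Shares of all windows with that centring are not given here, so these counts cannot be set against the genome shares above.

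**Figure D4:**
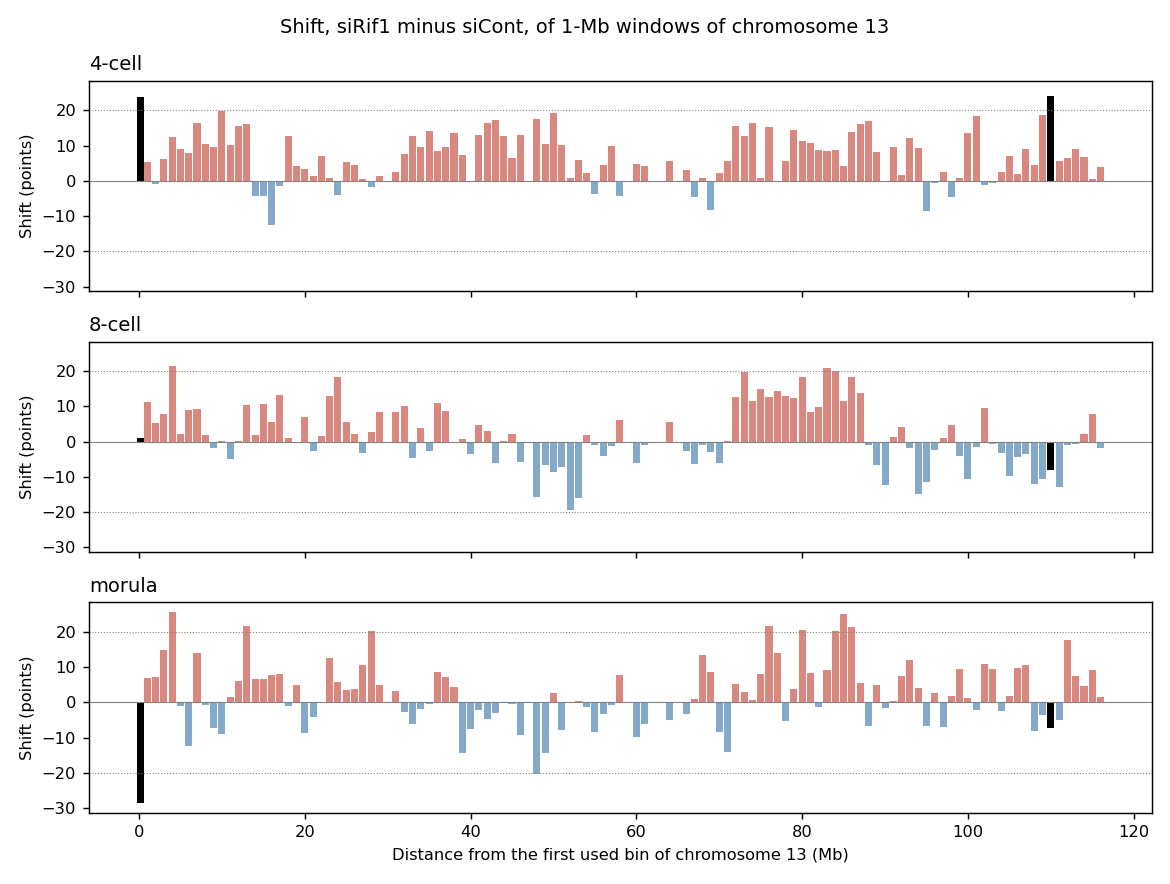
The shift (siRif1 minus siCont, points, vertical axis) of the 111 windows of 1 Mb is drawn against the distance from the first used bin (Mb), with a panel per stage. Black bars are the first window and the window of Arl15, dotted lines mark 20 points in each direction; at the 4-cell stage both black bars pass 20 points, and in morulae the first is at -28.6.

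The proximal end, at 3 to 4 Mb, had opposite shifts at the first and last stage. Its 10 used bins, from 3.5 to 4 Mb, hold 9 protein-coding genes, the longest of which were Tasor2, Net1, an exchange factor for the GTPase RhoA, and Gdi2, which recycles Rab GTPases. The centred share was 6.40, 9.38 and -6.42 points in siRif1 cells and -17.4, 8.46 and 22.2 points in siCont cells at the 4-cell, 8-cell and morula stages. The shifts were 23.8, 0.914 and -28.6 points, and the 8-cell value had the other sign in cells between 20 and 80% replicated (-0.449) and without the 3 cells that stood apart (-0.551). The shift ranked 3 from the top of 2317 windows at the 4-cell stage and 4 from the bottom in morulae. In siCont cells this end was thus among the late parts of the chromosome at the 4-cell stage and among its early parts in morulae, 39.6 points apart, while siRif1 cells differed by -12.8 points between morula and 4-cell.

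Counted in cells, most of the window was replicated in 31 of 51 siRif1 4-cell blastomeres (60.8%, exact Clopper-Pearson 95% interval 46.1 to 74.2%) and in 14 of 49 siCont ones (28.6%, 16.6 to 43.3%). The 8-cell counts were 26 of 50 siRif1 (52%, 37.4 to 66.3%) and 37 of 60 siCont cells (61.7%, 48.2 to 73.9%). In morulae these were 20 of 45 siRif1 (44.4%, 29.6 to 60%) and 28 of 44 siCont cells (63.6%, 47.8 to 77.6%). These intervals cover counting error only, because cells of 1 embryo may resemble each other.

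The groups also differed in the S phase position of their cells. At the 4-cell stage 15, 23 and 13 siRif1 cells and 21, 11 and 17 siCont cells had under 40, 40 to 60 and over 60% of the autosomes replicated. Within these classes the window was replicated in 7 of 15, 11 of 23 and 13 of 13 siRif1 cells and in 4 of 21, 3 of 11 and 7 of 17 siCont cells. In morulae it was replicated in 2 of 16, 6 of 13 and 12 of 16 siRif1 cells and in 2 of 10, 18 of 24 and 8 of 10 siCont cells. With cells thinned to the same S phase positions the shifts were 24.1, 8.18 and -21.5 points.

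The change of sign was seen along the whole of this short end. Neighbouring bins often had the same cell counts, so its bins are not separate observations. The 10 bins had shifts from 10.9 to 30.3 points at the 4-cell stage, 8 of them at 20 or more, and from -35.3 to -19.8 points in morulae, 9 of them at -20 or lower. At the bin of the Tasor2 start 31 of 51 siRif1 and 15 of 49 siCont 4-cell blastomeres, 27 of 50 siRif1 and 35 of 60 siCont 8-cell blastomeres, and 16 of 45 siRif1 and 28 of 44 siCont morula cells were replicated. The adjoining window at 4 to 5 Mb, with the Akr1c genes of steroid metabolism, had no bin past 20 points at the 4-cell and 8-cell stages, and 3 bins at least 20 points earlier and 1 as much later in morulae. Its median bin was shifted by 4.77, 13.2 and 8.63 points. Set against the first 10 used bins of each autosome, the shift of chromosome 13 was the highest at the 4-cell stage, with the others between -14.3 and 13 points. It was the lowest in morulae, where the others lay between -28 and 19.9 points with a median of -9.32. Chromosome 11, at -28 points, was close to chromosome 13, so a negative morula shift at this end was not particular to chromosome 13.

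**Figure D5:**
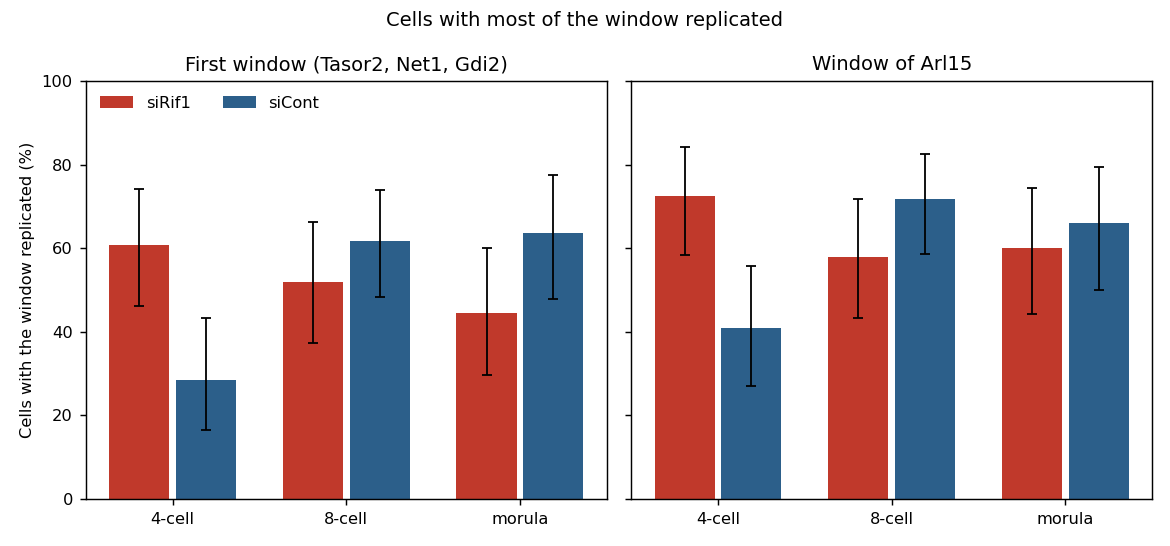
Bars give the percent of cells in which most of the window was replicated (vertical axis), siRif1 in red left of siCont in blue at each stage, for the first window of the chromosome and the window of Arl15. Error bars are exact 95% intervals (counting error only); at the 4-cell stage they run from 46.1 to 74.2% in siRif1 and 16.6 to 43.3% in siCont cells in the first window, and from 58.3 to 84.1% in siRif1 and 27 to 55.8% in siCont cells in the window of Arl15.

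The distal window around Arl15 was earlier in siRif1 cells at the 4-cell stage only. Its 10 protein-coding genes include Arl15 and Cdc20b, a relative of the mitotic activator Cdc20. The centred share was 21.1, 14.1 and 14.4 points in siRif1 cells and -2.97, 22.1 and 21.7 points in siCont cells, so siRif1 cells were early throughout. The shifts were 24.1, -8.05 and -7.39 points, and the 4-cell shift ranked 2 from the top of 2317 windows. On the percentile-rank scale the morula value had the other sign, 2.08 rank points, so its direction depends on the scaling. Most of the window was replicated in 37 of 51 siRif1 (72.5%) and 20 of 49 siCont (40.8%) 4-cell blastomeres. At the 8-cell stage these were 29 of 50 siRif1 (58%) and 43 of 60 siCont cells (71.7%), and in morulae 27 of 45 (60%) siRif1 and 29 of 44 (65.9%) siCont cells.

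All 20 bins of the window, which are not separate observations, had a 4-cell shift between 15.7 and 29.9 points, and 19 of them passed 20 points. At the bin of the Arl15 start 38 of 51 siRif1 and 24 of 49 siCont 4-cell blastomeres were replicated, against 33 of 50 siRif1 and 45 of 60 siCont cells at the 8-cell stage. Among 4-cell blastomeres with 40 to 60% of the autosomes replicated, 19 of 23 siRif1 and 3 of 11 siCont cells had replicated the window. Among those over 60% it was replicated in 13 of 13 siRif1 and 15 of 17 siCont cells. The window before it, chr13:112000001-113000000 with Slc38a9, a lysosomal arginine sensor, and Plpp1, a lipid phosphatase, had shifts of 18.6, -10.7 and -3.51 points. The window after it had a median bin shift of 3.89, -12.5 and -4.35 points and a mean 4-cell shift of 5.71 points. Its 4-cell bin shifts fell from 13.6 points in its first bin to -0.274 points at 114.3 Mb. They were 12.1 points in its last bin.

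Other windows differed in the stage of their largest shift. At 13 to 14 Mb, with Lyst, a regulator of lysosomal traffic, and Nid1, a basement membrane protein, the shift was 19.7 points at the 4-cell stage, 0.15 at the 8-cell stage (-1.48 without the 3 cells that stood apart) and -8.88 points in morulae. At 16 to 17 Mb, with Inhba, the activin A subunit, it was positive throughout, at 16.1, 10.4 and 21.6 points. There the siCont value of morulae was 24.6 points below that of 8-cell blastomeres, and the siRif1 value 13.4 points below. The window at 7 to 8 Mb, in which no protein-coding gene had its midpoint, had 12.4, 21.4 and 25.6 points. In morulae most of it was replicated in 23 of 45 siRif1 and 10 of 44 siCont cells. The lowest 4-cell shift was at 19 to 20 Mb, with Amph, a protein of endocytosis, at -12.6 points.

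The stretch from 50 to 60 Mb had shifts of opposite sign between stages. Over 181 used bins it averaged 7.47 points at the 4-cell stage, -8.52 at the 8-cell stage and -5.88 points in morulae. At the 4-cell stage 22 of its bins (12.2%) were at least 20 points earlier in siRif1 cells, against 1.36 percent of all used bins. No bin of it was as much earlier at the later stages. As much later were 18 bins (9.94%) at the 8-cell stage, against 6.43 percent of all used bins. In morulae 22 bins (12.2%) were as much later, against 5.6 percent of all. The sharpest window, at 51 to 52 Mb with the adaptor gene Shc3, the semaphorin Sema4d and the histone reader Spin1, had shifts of 17.5, -15.9 and -20.2 points. Its centred share was 13.5, -0.221 and 18.6 points in siRif1 cells and -3.99, 15.6 and 38.8 points in siCont cells. Most of it was replicated in 30 of 45 siRif1 and 39 of 44 siCont morula cells. At 55 to 56 Mb, with Nsd1, a histone H3 lysine 36 methyltransferase, the shift was -19.3 points at the 8-cell stage, and 0.831 (-0.911 without the 3 cells that stood apart) and 0.0726 points at the 4-cell and morula stages.

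The stretch from 80 to 90 Mb, the gene-poorest of the chromosome with 15 genes, was earlier in siRif1 cells at all stages. It averaged -4.72, -1.83 and -13.4 points in siRif1 cells and -13.3, -16.5 and -25 points in siCont cells. The shifts were 8.63, 14.7 and 11.5 points. The latest of 5 timing classes of bins, described below, had -4.75 to 5.98, 7.14 to 15.3 and 7.75 to 22.5 points on the other autosomes. The 8-cell and morula shifts of this late stretch lay within those ranges. At least 20 points earlier were 0 bins at the 4-cell stage, 39 (19.5%) at the 8-cell stage and 61 of 200 (30.5%) in morulae. The shares of all used bins were 1.36, 3.95 and 6.41 percent. The 61 bins were among the 144 such bins of the chromosome in morulae. At 86 to 87 Mb, around Cox7c, the 8-cell shift was 20.9 points, with 17 of 50 siRif1 and 8 of 60 siCont cells replicated. The bin of the Cox7c start itself had smaller shifts of 6.97, 8.85 and 3.50 points, with 18 of 50 siRif1 and 20 of 60 siCont 8-cell blastomeres replicated. At 87 to 88 Mb most of the window was replicated in 10 of 45 siRif1 and 1 of 44 siCont morula cells. At 88 to 89 Mb, with Edil3, an integrin ligand, it was replicated in 16 of 45 siRif1 and 3 of 44 siCont morula cells, and the shift was 25 points. Edil3 itself, at chr13:88821472-89323225, had shifts of 12.4, 12.2 and 25.9 points.

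Bins of all autosomes were put into 5 classes of equal size by the siCont cells of the other 2 stages. On chromosome 13 the classes were unequal. The earliest and latest held 339 and 225 bins at the 4-cell stage, 228 and 329 at the 8-cell stage, and 266 and 342 in morulae. The 4-cell shift of chromosome 13 was positive in every class. It was 8.30 points in its earliest and 5.04 points in its latest bins, and the value of the earliest was the highest of 19 autosomes, the others lying between -6.61 and 2.35. At the later stages the latest bins carried the positive shift, with -5.22 points in the earliest and 12 in the latest bins at the 8-cell stage, and -3.89 and 11.5 points in morulae. This pattern was not particular to chromosome 13. On the other autosomes the earliest bins had -18.5 to -2.63 and the latest 7.14 to 15.3 points at the 8-cell stage. In morulae these ranges were -13.6 to -4.85 and 7.75 to 22.5 points. The difference of latest minus earliest bins in morulae, 15.4 points, was the lowest of 19 autosomes, where the others had 16 to 31.7 points.

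The step between the 8-cell and 4-cell stages in siCont cells was then taken bin by bin. At least 20 points higher at the 8-cell than at the 4-cell stage were 219 bins (9.92%, the highest share of 19 autosomes), against 3.23 percent of all, and 19 bins (0.861%) were as much lower, against 6.13 percent of all. In siRif1 cells 62 bins (2.81%) were as much higher, against 2.34 percent of all, and 7 (0.317%) lower, against 1.7 percent of all. Without the 3 cells that stood apart the lower share was 0.543%. The 3 windows with the highest siCont step were that of Slc38a9 with 26.8 points, that at 53 to 54 Mb with 26.4 points and that at 3 to 4 Mb with 25.8 points, and the siRif1 steps there were -2.56, -1.37 and 2.97 points. The window at 53 to 54 Mb holds Msx2, a homeobox gene, and Ror2, a receptor for Wnt5a, and its shifts were 19.2, -8.65 and 2.67 points. From 8-cell to morula, 60 bins (2.72%) were at least 20 points higher in siCont cells, against 3.76 percent of all, and 73 (3.31%) lower, against 3.36 percent of all. The same step in siRif1 cells had 93 bins (4.21%) higher, against 6.87 percent of all, and 84 (3.80%) lower, against 4.59 percent of all.

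Gene clusters of the chromosome were described by the bin at their midpoint, so members of a cluster share bins and are not separate observations. Over the 776 protein-coding genes of chromosome 13 with a used bin, 584 had a positive 4-cell shift (75.3%, median 6.25 points), against 40.4% of 19410 autosomal genes (median -2.31 points). At the 8-cell stage 42.9% of chromosome 13 genes were positive, against 28.1% of all, and in morulae 38.8%, against 25.2% of all. Centred on the median, 530, 406 and 402 of the 776 were positive at the 3 stages, and the shares of all autosomal genes with that centring are not given here.

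The lists were drawn up with earlier results known, and their counts stand beside those of all genes. The histone cluster, which makes the core and linker histones of S phase, lay in 11 bins between 21.7 and 23.9 Mb. All 53 measured genes had a positive 4-cell shift (median 7.97, range 3.65 to 26.3 points) and all 53 a negative morula shift (median -10.9, range -19.7 to -2.00 points), of which 12 became positive with centring on the median. Among 8-cell blastomeres 31 were positive and 22 negative. The linker histone gene H1f5 was replicated in 31 of 51 siRif1 and 17 of 49 siCont 4-cell blastomeres, in 22 of 50 siRif1 and 33 of 60 siCont 8-cell blastomeres, and in 22 of 45 siRif1 and 25 of 44 siCont morula cells. H1f3, in the distal part of the cluster, had shifts of 6.25, 7.18 and -19.7 points.

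The prolactin family, hormones of the placenta and pituitary, had its positive shifts at the later stages. All 23 measured members, in 18 bins, had a positive shift at the 8-cell stage (median 19.8 points) and in morulae (median 5.68 points), also with centring on the median. At the 4-cell stage 7 were positive and 16 negative (median -4.64 points), and 4 were positive with centring on the median. Prl8a1 was replicated in 12 of 50 siRif1 and 5 of 60 siCont 8-cell blastomeres. Prl3a1, whose promoter is printed above, was replicated in 16 of 51 siRif1 and 13 of 49 siCont 4-cell blastomeres, in 17 of 50 siRif1 and 11 of 60 siCont 8-cell blastomeres, and in 11 of 45 siRif1 and 8 of 44 siCont morula cells.

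All 15 cell cycle and DNA repair genes, in 13 bins, had a positive 4-cell shift (median 9.77 points), 14 with centring on the median. Of all chromosome 13 genes 75.3% were positive at that stage. In morulae 12 of the 15 were negative (median -11.1 points), 10 with centring on the median. Without that centring, 475 of 776 chromosome 13 genes (median -3.79 points) were negative in morulae. Of all autosomal genes 14519 of 19410 were (median -8.04 points), so a negative morula shift was common to most genes. Ccnb1, cyclin B1, had shifts of 9.61, 5.18 and -17.9 points, and Gadd45g, a growth arrest gene at 51.8 Mb, had 12.1, -13.8 and -22.5 points. Xrcc4, a factor of DNA end joining at the distal end of the stretch at 80 to 90 Mb, had 12.4, 20.5 and 14.2 points. Of 19 developmental transcription factor genes, 15, 10 and 14 had a positive shift at the 3 stages (14, 12 and 15 with centring on the median). Mef2c, a factor of heart and neuron development in the late stretch, was replicated in 17 of 45 siRif1 and 5 of 44 siCont morula cells, and its shifts were 10.4, 19.5 and 25.8 points. Pitx1, a hindlimb factor, had -25.2 points at the 8-cell stage, with 21 of 50 siRif1 and 44 of 60 siCont cells replicated.

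The remaining lists were mixed. Of 11 measured Serpinb genes, which code for intracellular protease inhibitors, 4, 2 and 0 had a positive shift at the 3 stages (1, 4 and 0 with centring on the median), and Serpinb9c had -24.1 points in morulae. All 8 Akr1c genes were positive at the 4-cell stage (7 with centring on the median), 7 at the 8-cell stage and 5 in morulae. Of 35 vomeronasal receptor genes, 24, 26 and 24 were positive, with medians of 1.49, 4.51 and 5.78 points, and centring on the median gave 16, 26 and 32. Of 28 measured zinc finger genes, 23, 17 and 13 were positive (22, 22 and 16 with centring on the median), and Zfp184 beside the histone cluster had shifts of 18.6, -7.15 and -8.11 points. The 4 Naip genes, sensors of bacterial proteins, had shifts within 7 points of 0 at every stage. Among the 20 longest genes, 18, 15 and 10 had a positive shift, and Atxn1, the ataxin 1 gene, had 21.8, -0.819 and -13.6 points.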

How the data were processed

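Single blastomeres of 6 groups were analysed from 6 tables of states (0, 1 or missing) per 50-kb bin and cell deposited by the authors, with columns matched to samples by title. Per the submitters' processing notes, the build was GRCm38 and the tools included R 4.2.3 and Bowtie2 2.5.1 beside Picard, SAMtools and bedtools, with no roles. The calling of states and the choice of cells are not given in the sources used here, and read depth per cell is unknown. The shortest run of 1 state inside chromosome 13 was 5 bins (250 kb), so finer structure cannot be read. The position column was read as the start of a bin. The X chromosome was not analysed here.

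Shares, centred shares, shifts, domains, ranks over 19 autosomes and exact Clopper-Pearson intervals (95%, counting error only) were computed in Python 3.11.15 (numpy 2.4.6, pandas 2.3.3, scipy 1.17.1, matplotlib 3.10.9). The scripts were tested on simulated data. A cell had a window replicated when most of its measured bins were in state 1. Protein-coding genes and promoters were those of RefSeq, and a gene was placed by its midpoint.

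Windows were named by rule: the 3 highest and 3 lowest shifts of each stage, the 3 highest and 3 lowest siCont differences for 8-cell minus 4-cell and morula minus 8-cell, and the windows at 3 to 4 Mb and around Arl15, each with up to 3 of its longest genes. Each gene list named members from the 2 with the largest absolute shift at each stage. Genes of always-early or always-late runs were picked after their values were seen. The chromosome, its windows and the gene lists were chosen with earlier results of these data known. Alternatives were cells between 20 and 80% replicated, cells thinned to matched S phase positions, at least 20 cells per bin, percentile ranks, centring on the median, a shift of 30 points, shortest domains of 5 or 20 bins and, added after seeing the data, leaving out 3 cells.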

Additional observations from a re-analysis of the deposited data

Results flagged for a closer look

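The window at 3 to 4 Mb of chromosome 13 moved in opposite directions under the same contrast at 2 stages: siRif1 minus siCont was 23.8 points at the 4-cell stage and -28.6 points in morulae. The difference between these shifts was not tested, because each group is 1 sample. The window was 1 of those chosen for its shifts. Its 10 used bins lay next to the unused start of the chromosome.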

How the results depend on the processing

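Of 948 recomputed values, 870 stayed within their interval, spread or 1.5 times the reported count and 78 did not. The 870 include 110 and 44 values (other and main results) from the setting of at least 20 cells per bin. That setting kept the same bins, so its values could not change. The mean shift of chromosome 13 kept its sign at every stage under every setting run. No paired analysis was possible because replicate numbers only name single cells and no result comes from a test. Percentile ranks were not run for SDs and counts of 20-point shifts, which have no counterpart on that scale. Each group is 1 sample, so only counting error is known. Depth per cell is unknown, and the state smoothing limits resolution to about 250 kb.

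Centred on the median, the siCont morula mean was -2.62 points, the mean shift was 4.58 points at the 4-cell stage and 6.32 in morulae, and the siCont means differed by 2.82 (8-cell minus 4-cell), -2.91 (morula minus 8-cell) and -0.0897 points (morula minus 4-cell). Bins at least 20 points earlier were 3.71, 7.02 and 12.4% at the 3 stages, and those later 0.272% at the 8-cell stage and 0.679% in morulae. For siCont 8-cell minus 4-cell 4.39% were earlier and 2.04% later, and for siCont morula minus 8-cell 6.66% later. Shares of all used bins with centring on the median are not given here. On percentile ranks the means were 9.60 in siRif1 8-cell and -8.26 in siCont 4-cell blastomeres, the mean shifts 14.2, 5.95 and 6.05, the 4-cell shifts 55.1 at 3 to 4 Mb and 48.8 around Arl15, and the siCont differences 11.9 (8-cell minus 4-cell) and 10.2 (morula minus 4-cell). These are on another scale.

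In cells between 20 and 80% replicated the siCont 4-cell SD was 13.9 points, 10.1% of bins were earlier and 0% later at the 4-cell stage, 2.17% were later at the 8-cell stage, and 1.09% were later for siRif1 8-cell minus 4-cell. With matched S phase positions the SD was 14.2 points in siRif1 and 17.8 in siCont 8-cell blastomeres and 17.8 in siRif1 morulae, and the 4-cell correlation was 0.706. Later bins were then 2.31% at the 8-cell stage, 0.951% in morulae, 1.31% for siRif1 8-cell minus 4-cell, 6.02% for siRif1 morula minus 8-cell and 1.99% for siCont 8-cell minus 4-cell, and earlier bins 7.84% for siRif1 8-cell minus 4-cell. Without the 3 cells that stood apart, 1.99% were later at the 8-cell stage and 0.543% for siRif1 8-cell minus 4-cell. The cause of these differences was not tested.

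A limit of 30 points left 0.0906, 0.181 and 0.815% of bins earlier and 0, 0 and 0.181% later at the 3 stages, against 0.0196, 0.224 and 0.608% earlier and 0.0435, 1.06 and 0.461% later among all used bins. For siRif1 it left 0.0906% earlier and 0% later (8-cell minus 4-cell) and 0.498% earlier and 0.0453% later (morula minus 8-cell). For siCont it left 0.679% and 0%, and 0.408% and 0.181%, in the same order. With a shortest domain of 20 bins there were 25, 26 and 21 domains in siRif1 cells at the 3 stages, and 29 in siCont 4-cell blastomeres and 23 in siCont morulae.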
